A study of Homo sapiens with 6 samples.

Results

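CTCF and 9 genes of the cohesin complex or its regulators were followed in HEK293T cells treated with valproic acid (VPA). The 10 genes, CTCF, RAD21, SMC3, STAG1, NIPBL, MAU2, WAPL, PDS5A, PDS5B and ESCO1, were chosen by symbol from the 47470 genes in the count files, and all 10 were among the 15298 genes that passed the filter on low counts. HEK293T cells derive from human embryonic kidney, were transformed with adenovirus DNA and express the large T antigen of SV40, and they were wild type in both groups. The untreated group, which received no agent, held 3 libraries, and the VPA group, which received 1 mM VPA for 1 day, held 3 libraries. VPA is a branched fatty acid that inhibits class I histone deacetylases and is used against epilepsy. The libraries were strand-specific mRNA libraries made from total RNA. The labels do not tie the replicates to separate cultures, so the p-values measured the spread between these libraries. One line was studied at a single dose and time, and the RNA, not the proteins, was measured.

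Cohesin is a ring of SMC1, SMC3 and RAD21 to which a STAG subunit binds. The ring is loaded onto DNA by NIPBL with MAU2 and reels in chromatin until it meets CTCF, a zinc finger protein bound to DNA, so that loops form between CTCF sites. WAPL and the PDS5 proteins release cohesin from chromatin, and acetylation of SMC3 by ESCO1 or ESCO2 makes the ring resistant to release. The same ring holds sister chromatids together until mitosis.

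Of the 10 genes, 8 fell after VPA treatment and 0 rose, by edgeR's quasi-likelihood test at an adjusted p under 0.05 over all tested genes. The 8 were CTCF, RAD21, SMC3, STAG1, NIPBL, MAU2, WAPL and PDS5A, while PDS5B and ESCO1 did not pass the test in either direction. By DESeq2 the count of genes that rose was also 0, and at an unadjusted p under 0.05 it was 1, PDS5B. Over all tested genes, 30.0% fell and 32.9% rose. None of the 10 passed the study's thresholds for differentially expressed genes (DEGs), which also ask for a log2 change of 1 or more in either direction and which 12.5% of tested genes passed. By DESeq2, or at an unadjusted p under 0.05 with the same fold, that count was also 0, and the largest size among the 10 was 0.46 on the log2 scale. Fewer cells in a given phase of the cell cycle and less RNA per cell could not be told apart in such bulk libraries.

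The totals on genes lay between 18622267 and 18828495 counts per library, and the biological coefficient of variation over tested genes was 3.83%. Epithelial, mesenchymal and neuronal markers known from this line were present, since KRT8, KRT18, VIM and NEFM had between 352 and 10899 normalized counts in every library. PAX2, also taken as a marker of this line, was much lower, at 29.3 to 143. Markers of other cell types, PTPRC of leukocytes, ALB of hepatocytes, HBB of erythroid cells, CDH5 of endothelium and MYH7 of muscle, stayed at or below 4.79 normalized counts, whereas COL1A1 of fibroblasts had 402 to 1376. Several of the markers that were present moved with treatment. The log2 fold change was 2.26 for PAX2, 1.57 for COL1A1, 1.37 for KRT8, 0.87 for NEFM and -0.27 for VIM, all with an adjusted p under 0.05, and the part of such a shift in the values of the 10 genes was not tested. All 1647 listed genes of the X and Y chromosomes and the mitochondrial genome had a count of 0 in every library. SMC1A, STAG2 and HDAC8, which encode the remaining mitotic core subunit, the second mitotic STAG subunit and the deacetylase of SMC3, lie on the X chromosome and were therefore listed at 0, so their RNA could not be read.

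Promoters, the 250 bases before the RefSeq start, are given for 4 of the genes, in GRCh38.p14 and in the direction of transcription. CTCF (chr16:67562276-67562525, plus strand) is shown as the loop anchor, STAG1 (chr3:136752379-136752628, minus strand) as the gene that fell most, and NIPBL (chr5:36876519-36876768, plus strand) and PDS5B (chr13:32586202-32586451, plus strand) for the transcripts that start nearby on the other strand. Capitals mark matches, on either strand, to the GC box GGGCGG, the ETS motif CCGGAAG, the CCAAT box CCAAT and the NRF1 motif GCGCANGC.
CTCF: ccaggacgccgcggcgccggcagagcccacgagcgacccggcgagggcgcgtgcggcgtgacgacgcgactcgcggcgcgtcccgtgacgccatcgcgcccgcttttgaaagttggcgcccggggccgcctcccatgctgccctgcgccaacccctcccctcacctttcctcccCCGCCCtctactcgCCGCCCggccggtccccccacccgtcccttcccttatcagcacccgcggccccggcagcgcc
STAG1: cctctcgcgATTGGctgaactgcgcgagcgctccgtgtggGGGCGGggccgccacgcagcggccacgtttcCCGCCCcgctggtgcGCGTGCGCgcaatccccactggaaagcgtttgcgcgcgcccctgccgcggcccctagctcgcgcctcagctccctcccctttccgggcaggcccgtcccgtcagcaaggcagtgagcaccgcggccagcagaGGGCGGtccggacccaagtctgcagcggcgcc
NIPBL: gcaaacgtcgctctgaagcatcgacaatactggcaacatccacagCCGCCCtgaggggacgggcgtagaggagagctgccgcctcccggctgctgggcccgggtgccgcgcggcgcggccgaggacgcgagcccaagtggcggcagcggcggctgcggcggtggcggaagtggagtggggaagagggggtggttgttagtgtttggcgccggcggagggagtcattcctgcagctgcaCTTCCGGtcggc
PDS5B: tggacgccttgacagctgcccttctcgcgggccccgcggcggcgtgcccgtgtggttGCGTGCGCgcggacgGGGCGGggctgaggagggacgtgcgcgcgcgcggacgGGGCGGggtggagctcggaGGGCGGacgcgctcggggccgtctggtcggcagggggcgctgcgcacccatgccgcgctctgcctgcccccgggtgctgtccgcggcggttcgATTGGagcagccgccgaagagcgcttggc

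The RefSeq promoter table held 8 of the 10 genes. A GC box was found in 8 of these 8 promoters and in 42.3% of the 27305 promoters of the table. The CCAAT box was found in 4 of 8, against 33.0% of all promoters, and the NRF1 motif in 3 of 8, against 10.9%. Of the 8, NIPBL alone held the ETS motif, which 8.82% of all promoters held. The GC content of the 8 promoters ran from 52.8% in SMC3 to 78% in PDS5B, with a median over all promoters of 58%, and they held 17 to 41 CpG sites against a median of 11. Such matches describe the letters only, and binding of the factors was not measured here. STAG1 and WAPL, which fell, and PDS5B, which did not pass the test, all held GC, CCAAT and NRF1 matches.

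CTCF, which binds DNA at the anchors of loops and at the borders of domains, lies at chr16:67562526-67639177 on the plus strand. Its RNA measured 3566, 3901 and 3969 TMM-normalized counts in untreated cells and 2928, 3067 and 2872 in VPA-treated cells. Every VPA library was below every untreated one. The mean fell from 3812 ± 216 to 2956 ± 100 (SD, n = 3 per group), which is -0.37 on the log2 scale (SE 0.045, adjusted p = 3.8e-07). That is a change of -22.5%, with a 95% interval from -27.3% to -17.3%.

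Both core ring genes that could be read, SMC3 and RAD21, fell. SMC3, one of the long coiled-coil ATPases of the ring (chr10:110567695-110606048, plus strand), had 3481, 3274 and 3643 normalized counts in untreated and 2788, 2832 and 3154 in VPA-treated cells. The groups did not overlap, and the log2 fold change was -0.25 (SE 0.0495, adjusted p = 2.12e-04). RAD21, the kleisin that closes the ring and is cut by separase at anaphase (chr8:116845934-116874776), had 5302, 5389 and 5521 normalized counts in untreated and 4510, 4520 and 4729 in VPA-treated cells. It had the most normalized counts of the 10 before any correction for length, and its groups did not overlap either. Its log2 fold change was -0.24 (SE 0.039, adjusted p = 2.15e-05), or -15.1%, with a 95% interval from -19.8% to -10.2%. In RefSeq, the RAD21 gene overlaps LOC112268030, which had 121 counts over the 6 libraries, and the antisense RAD21-AS1, which had 23. In GENCODE 44 it also overlaps UTP23, a protein-coding gene on the other strand, by 3530 bases of gene span. The level of UTP23 was 446 ± 15.7 normalized counts without VPA and 433 ± 47.3 with VPA (log2 fold change -0.044, adjusted p = 0.629). The strand option of the counting was not given, so reads of the shared stretch may not be told apart.

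STAG1, which docks onto RAD21 and contacts CTCF (chr3:136336236-136752378, minus strand), had the largest fall of the 10. It measured 1620, 1444 and 1608 normalized counts in untreated and 1090, 1119 and 1177 in VPA-treated libraries. The lowest untreated library was above the highest VPA library by more than the spread within either group. The mean went from 1558 ± 98.2 to 1129 ± 44.3 (SD, n = 3 per group), a log2 fold change of -0.46 (SE 0.052, adjusted p = 1.01e-07). This corresponded to -27.6%, with a 95% interval from -32.8% to -21.9%. In GENCODE 44 the span of STAG1 overlaps that of PCCB, a gene for a mitochondrial carboxylase subunit on the other strand, by 1661 bases. PCCB fell from 1973 ± 69.1 to 1593 ± 44.3 normalized counts (log2 fold change -0.31, adjusted p = 4.04e-06), and the part of shared reads in either value was not tested.

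Both genes of the loader fell. NIPBL, the large subunit that drives loading and extrusion (chr5:36876769-37066413, plus strand), had 2036, 1896 and 2054 normalized counts in untreated and 1587, 1548 and 1674 in VPA-treated libraries. Its log2 fold change was -0.32 (SE 0.047, adjusted p = 5.20e-06), with no overlap of the groups. MAU2, the partner that stabilizes NIPBL (chr19:19320829-19358754, plus strand), had 1980, 1939 and 1901 normalized counts in untreated and 1616, 1430 and 1441 in VPA-treated libraries. It fell by 0.38 on the log2 scale (SE 0.049, adjusted p = 1.02e-06), again without overlap.

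NIPBL-DT, a transcript that starts 75 bases from NIPBL on the other strand, did not pass the test. It had 269, 289 and 257 normalized counts in untreated and 275, 253 and 282 in VPA-treated cells, and the groups overlapped. Its log2 fold change was -0.0078 (95% interval from -0.17 to 0.16, adjusted p = 0.940), and other scalings turned its sign. The interval of NIPBL itself, -24.9% to -14.0%, lay wholly below 0, but the difference between NIPBL and NIPBL-DT was not tested. The other transcripts that start near a member had few counts, with 26 for CTCF-DT and 4 for PDS5B-DT over the 6 libraries.

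Of the release genes, WAPL and PDS5A fell and PDS5B did not pass the test. WAPL, which opens the ring (chr10:86435256-86521792, minus strand), had 2382, 2558 and 2433 normalized counts in untreated and 2038, 2142 and 2162 in VPA-treated libraries. The groups were apart, and the log2 fold change was -0.22 (SE 0.044, adjusted p = 1.89e-04). PDS5A, a HEAT repeat protein that binds the ring together with WAPL (chr4:39822863-39977911, minus strand), had 2845, 2614 and 2665 normalized counts in untreated and 2405, 2494 and 2381 in VPA-treated libraries. Its fall was the smallest of the 8, at -0.16 (SE 0.0435, adjusted p = 0.0033) or -10.4%, although the groups still did not overlap.

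PDS5B, the close paralog of PDS5A (chr13:32586452-32778019, plus strand), had 1024, 955 and 1039 normalized counts in untreated and 1034, 1106 and 1123 in VPA-treated libraries. One VPA library lay below the highest untreated library. The log2 fold change was 0.11 (SE 0.0525, adjusted p = 0.0668), and the 95% interval of the change ran from 0.248% to 16.6%. The call depended on one library, since without VPA replicate 1 the log2 fold change was 0.15 with an adjusted p of 0.0268. It also passed with 3 other scalings of the libraries and with a filter on means under 50 counts. With the replicate number as a block it passed too (adjusted p = 0.0188), although the numbers share no stated origin.

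ESCO1, the acetyltransferase that modifies SMC3 through much of the cell cycle (chr18:21529284-21600704), was the gene with the fewest normalized counts. Its 3 untreated libraries lay close together, at 538, 536 and 535 normalized counts, and the VPA libraries had 505, 580 and 588. The VPA values lay on both sides of the untreated ones. The log2 fold change was 0.055 (SE 0.065, adjusted p = 0.473), and the interval of the change, from -5.35% to 14.1%, left out a fall as large as that of CTCF.

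**Figure D1:**
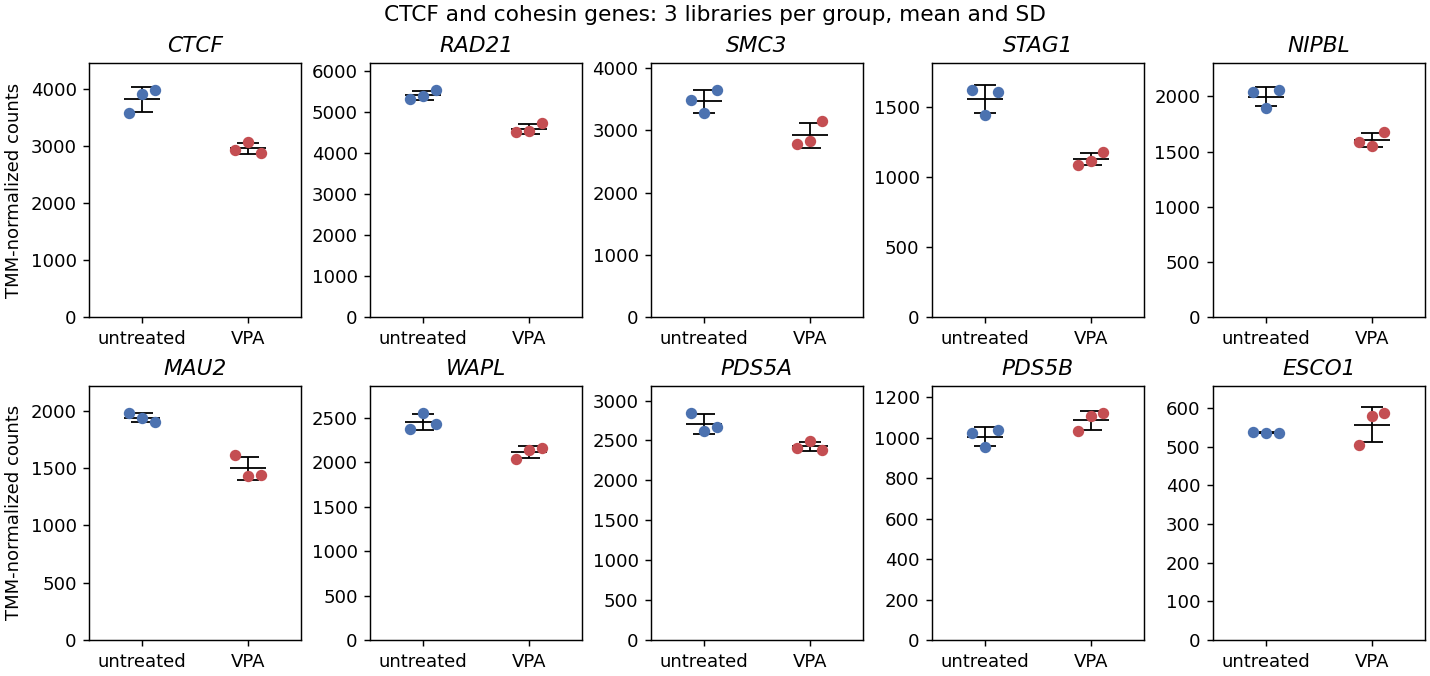
TMM-normalized counts (y axis, from 0, one scale per gene) of each of the 10 genes in the 3 untreated and 3 VPA libraries (x axis). Points are libraries, the long line is the mean and the short lines the SD. In the panels of CTCF, RAD21, SMC3, STAG1, NIPBL, MAU2, WAPL and PDS5A all VPA points lie below all untreated points, and in those of PDS5B and ESCO1 the groups overlap.

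The groups of libraries did not overlap in 8 of the 10 genes, and they did not overlap in 65.8% of all tested genes. The median log2 fold change was -0.24 over the 10 genes and 0.0058 over all tested genes. In size alone, the median was 0.24 for the 10 genes and 0.26 for all tested genes. The 10 genes were well counted, at the 54.6th to the 95.9th percentile of mean level among tested genes, and calls are easier at such depth.

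A fold change of RNA counts is relative to the scaling of the libraries, and here the scaling mattered. On the log2 scale, the median change over the tested genes was 0.14 when libraries were scaled to their totals and 0.28 when scaled to ribosomal protein genes, in place of 0.0058 with TMM. Of the genes called over the whole table, 52.3% were higher with TMM, 73.9% with totals and 91.5% with ribosomal protein genes. With totals, 5 of the 10 genes fell and PDS5B and ESCO1 rose. With ribosomal protein genes, STAG1 alone fell, at a log2 fold change of -0.19, and PDS5A, PDS5B and ESCO1 rose. STAG1 was the one gene called lower under every alternative that was run.

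A scaling moves a gene and the median of all tested genes alike, so the distance between them is the same under each scaling and says nothing of their merit. That distance was -0.47 for STAG1 with TMM, and it ran from -0.57 to -0.43 over the alternatives, the ends being set by filters on low counts. CTCF ran from -0.47 to -0.33 and RAD21 from -0.34 to -0.20. PDS5A, the least changed of the 8, ran from -0.26 to -0.12. PDS5B stayed above the median, by 0.012 to 0.15, and ESCO1 ran from -0.045 to 0.12. A fall here is a change relative to other genes, and a change of RNA per cell was not measured.

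**Figure D2:**
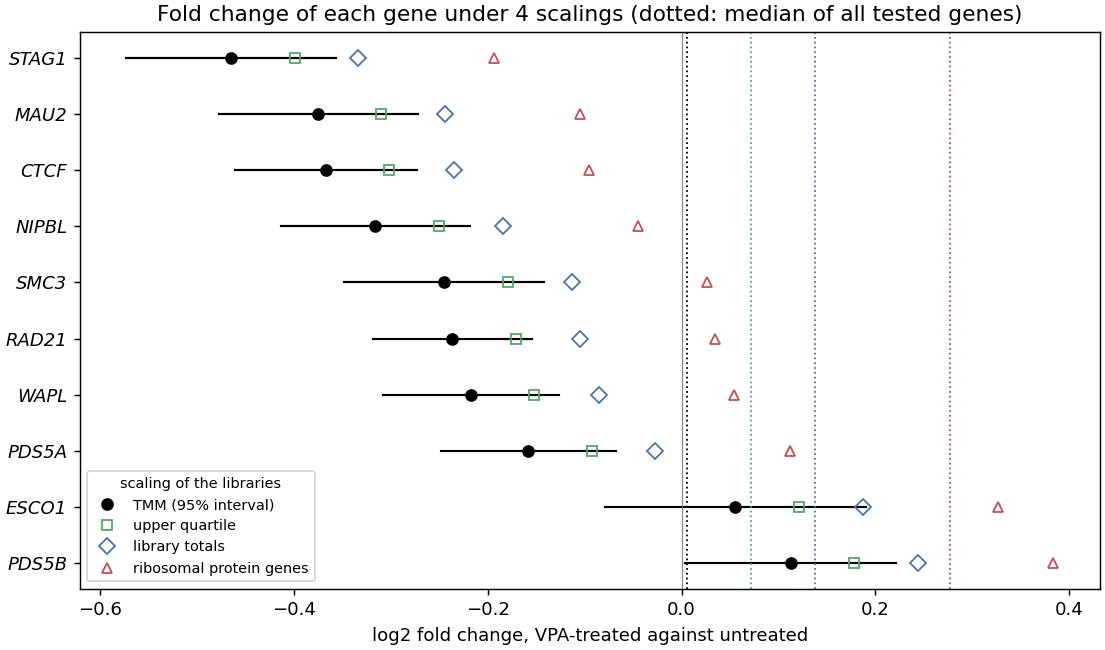
Log2 fold change, VPA-treated against untreated (x axis), of the 10 genes (y axis) under 4 scalings of the libraries. Filled circles with lines are TMM with its 95% interval, open symbols are the other scalings, and dotted lines are the median of all tested genes under the scaling of the same colour. The symbols of a gene shift together with the dotted lines, from a median of 0.0058 with TMM to 0.28 with ribosomal protein genes.

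Ratios of 2 genes within a library do not depend on the scaling, and 8 pairs that act together or against each other were compared. Such ratios are of read counts and depend on gene length, so that their change between groups is what can be read. The exact permutation test of 3 against 3 libraries, two-sided, cannot give a p below 0.1, so no pair could pass. In 3 of the 8 pairs the groups did not overlap, each with an exact p of 0.1 and an adjusted p of 0.267 over the 8 pairs. The groups did not overlap in 65.8% of single tested genes. That share was not computed over pairs of tested genes, so 3 of 8 cannot be called unusual.

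The ratio of PDS5A to PDS5B was 2.78, 2.74 and 2.56 in untreated and 2.33, 2.26 and 2.12 in VPA-treated libraries, a change of -17.1% (log2 difference -0.27). Every VPA library had a lower ratio of these paralogs than every untreated library. The ratio of STAG1 to RAD21 was 0.306, 0.268 and 0.291 in untreated and 0.242, 0.248 and 0.249 in VPA-treated libraries, a change of -14.6%. The ratio of ESCO1 to WAPL, the gene that protects cohesin against the gene that releases it, was 0.226, 0.209 and 0.220 in untreated and 0.248, 0.271 and 0.272 in VPA-treated libraries, a change of 20.5%.

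In the other 5 pairs the groups overlapped. RAD21 to SMC3 was 1.56 ± 0.073 in untreated and 1.57 ± 0.063 in VPA-treated libraries (SD, n = 3 per group), a change of 0.626%. The loader pair NIPBL to MAU2 went from 1.03 ± 0.051 to 1.08 ± 0.090, and PDS5A to WAPL from 1.10 ± 0.087 to 1.15 ± 0.042. NIPBL to WAPL, the loader against the release factor, was 0.813 ± 0.063 and 0.758 ± 0.031. CTCF to RAD21 was 0.705 ± 0.028 and 0.645 ± 0.036, a change of -8.56%. The exact p-values of these 5 pairs lay between 0.2 and 1 and the adjusted ones between 0.4 and 1.

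**Figure D3:**
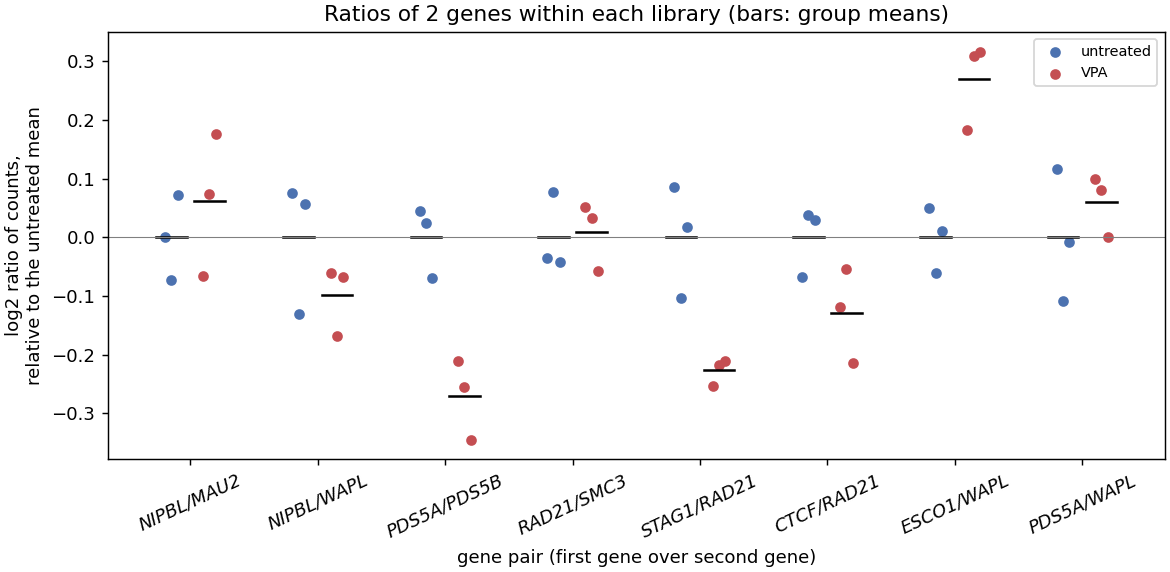
Ratio of the counts of 2 genes within a library, as the log2 difference from the mean of the untreated libraries (y axis), for 8 pairs (x axis); points are the 3 untreated and 3 VPA libraries. The groups are apart for PDS5A to PDS5B, STAG1 to RAD21 and ESCO1 to WAPL and overlap for the other 5 pairs.

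As a share of the counts of the 10 genes together, PDS5B took 4.04% in untreated and 5.21% in VPA-treated libraries and ESCO1 2.16% and 2.67%. STAG1 went from 6.26% to 5.40% and CTCF from 15.3% to 14.2%. RAD21, at 21.7% and 22.0%, and SMC3, at 13.9% and 14.0%, kept nearly the same shares. The 10 genes together made up 0.124% to 0.129% of the counts on genes in untreated and 0.114% to 0.119% in VPA-treated libraries.

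Per kilobase of exons, with all annotated exons of a gene merged, CTCF and RAD21 had the highest levels in untreated cells, at 377 ± 21.4 and 376 ± 7.66 normalized counts per kilobase (SD, n = 3). WAPL followed at 341, then SMC3 at 224, PDS5A at 222, STAG1 at 199, MAU2 at 176 and NIPBL at 159. ESCO1, at 102, and PDS5B, at 76.3, were lowest. Neighbours in this order overlapped in 2 cases, CTCF with RAD21 and SMC3 with PDS5A.

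After VPA treatment the levels per kilobase were in the order RAD21 (319), WAPL (293), CTCF (292), PDS5A (199), SMC3 (189), STAG1 (144), MAU2 (136), NIPBL (128), ESCO1 (106) and PDS5B (82.5). CTCF and WAPL overlapped with this length. PDS5A with SMC3, STAG1 with MAU2 and MAU2 with NIPBL also overlapped. With the longest transcript of each gene as the length, 7 of the 10 untreated ranks differed, but CTCF, at 794 normalized counts per kilobase, and RAD21, at 650, were still the top pair, and PDS5B, at 135, and ESCO1, at 112, the last. With that length CTCF was also first after VPA treatment, at 616, above RAD21, at 551, and WAPL, at 335, so the place of CTCF among the 3 after VPA treatment depended on the length used.

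**Figure D4:**
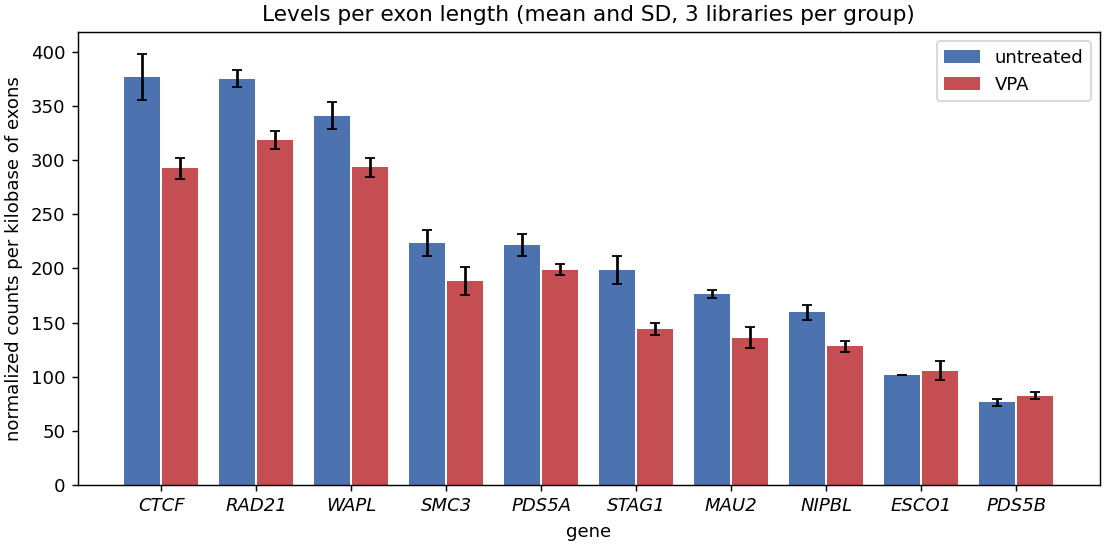
Level of each gene as normalized counts per kilobase of merged exons (y axis, from 0) in untreated and VPA-treated cells, for the 10 genes (x axis); bars are means and error bars the SD of 3 libraries. CTCF and RAD21 stand highest in untreated cells, and after VPA treatment RAD21, WAPL and CTCF do, an order that held for merged exons but not for the longest transcript.

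Genes around the cohesin cycle were read from lists taken by symbol. For comparison, 30.0% of all tested genes fell and 32.9% rose. Of 14 tested genes of the cohesion cycle, 7 fell, 0 rose and 7 did not pass the test, with a median log2 fold change of -0.13. CDCA5, which encodes sororin, the protector of cohesion in G2, fell from 3292 ± 93.8 to 2458 ± 41.8 normalized counts (log2 fold change -0.42, adjusted p = 1.06e-08). TIMELESS, a replication fork protein that aids cohesion, fell from 4953 to 3847 normalized counts (log2 fold change -0.36, adjusted p = 4.31e-08). ESCO2, the acetyltransferase that acts in S phase, was looked at after its values were seen because ESCO1 had not passed the test. It fell from 366 ± 22.5 to 310 ± 21.8 normalized counts (log2 fold change -0.24, adjusted p = 0.0094), but the adjusted p was 0.0677 without VPA replicate 2, 0.054 with upper quartile scaling and 0.24 with library totals, and the sign turned with ribosomal protein genes. HDAC8, on the X chromosome, was listed at 0 as said above. CHTF8, a subunit of the alternative clamp loader, was also at 0 in every library, although it lies on chromosome 16. Why CHTF8 had no counts was not tested, so the 0 cannot be read as absent RNA.

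The list of condensin and SMC5/6 genes, the other SMC rings, held 15 tested genes, including SMCHD1, which belongs to neither complex. Of the 15, 7 fell, 0 rose and 8, SMCHD1 among them, did not pass the test, with a median of -0.10. NCAPH, the kleisin of condensin I, fell from 3364 ± 240 to 2752 ± 88.7 normalized counts (log2 fold change -0.29, adjusted p = 1.99e-05). NCAPH2, the kleisin of condensin II, had a log2 fold change of -0.27 (adjusted p = 5.19e-05).

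Of 10 tested genes of other looping factors and CTCF partners, 7 fell, 0 rose and 3 did not pass the test, with a median of -0.17. BRD2, a bromodomain protein that reads acetylated histones and is found at CTCF sites, fell from 16952 ± 640 to 10374 ± 109 normalized counts. Its log2 fold change was -0.71 (adjusted p = 2.83e-12), a larger size than that of any of the 10 genes. PATZ1, a zinc finger protein, fell from 2099 to 1416 normalized counts (log2 fold change -0.57, adjusted p = 5.99e-10).

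Proliferation markers moved in the same direction as the 8 genes. Of 12 tested markers, 10 fell, 0 rose and 2 did not pass the test, and their median was -0.29. Their summed level was 64815 to 66177 normalized counts in untreated and 56596 to 56905 in VPA-treated libraries. The cyclins CCNE2 and CCNA2, of the G1 to S transition and of S and G2 phase, fell by 0.64 and 0.60 on the log2 scale (adjusted p = 9.73e-08 and 1.87e-10). The 2 that did not pass were MKI67, at 0.059 (adjusted p = 0.221), and TOP2A, at 0.033 (adjusted p = 0.481). The RNA of many cohesin genes varies over the cell cycle, and the part of these markers in the 8 falls was not tested. For these 4 lists, DESeq2 and the unadjusted p also gave 0 genes that rose. The direction of the lists rested on the scaling, since with ribosomal protein genes 8 cohesion cycle genes, 11 condensin and SMC5/6 genes, 5 looping genes and 4 proliferation markers rose, and 2, 0, 2 and 4 fell.

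CTCFL, the germline paralog of CTCF that binds many of the same sites and is normally restricted to the testis (chr20:57495965-57525652, minus strand), went in the other direction. It was picked out after its values were seen. Its raw counts were 0, 2 and 1 in untreated and 15, 20 and 27 in VPA-treated libraries, 3 against 62 in sum. The groups were far apart in proportion, but the level remained low, at 19.8 ± 5.76 normalized counts after VPA against 2956 ± 100 for CTCF. The ratio of the summed counts per library total was 20.8, with an exact 95% interval for counting error alone from 6.80 to 104. The fitted log2 fold change was 4.09 (SE 0.55, adjusted p = 1.44e-06), and it was called under every alternative that kept the gene in the test. With so few untreated counts 1 library moved its size, to 3.55 without untreated replicate 1 and 4.94 without untreated replicate 2.

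Other paralogous and meiotic cohesin genes were low. Of the 3 tested, CTCFL rose and 2 did not pass, which were STAG3, with 17, 14 and 5 raw counts in untreated and 16, 16 and 23 in VPA-treated libraries (adjusted p = 0.219), and REC8, with 43, 25 and 27 and then 37, 31 and 27 (adjusted p = 0.662). RAD21L1, a meiotic kleisin, did not pass the filter and had 1, 3 and 2 raw counts in untreated and 6, 12 and 4 in VPA-treated libraries. SMC1B, the meiotic counterpart of SMC1A, had 4 raw counts in untreated and 3 in VPA-treated libraries together. Without the filter on low counts, 2 genes of this list rose.

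**Figure D5:**
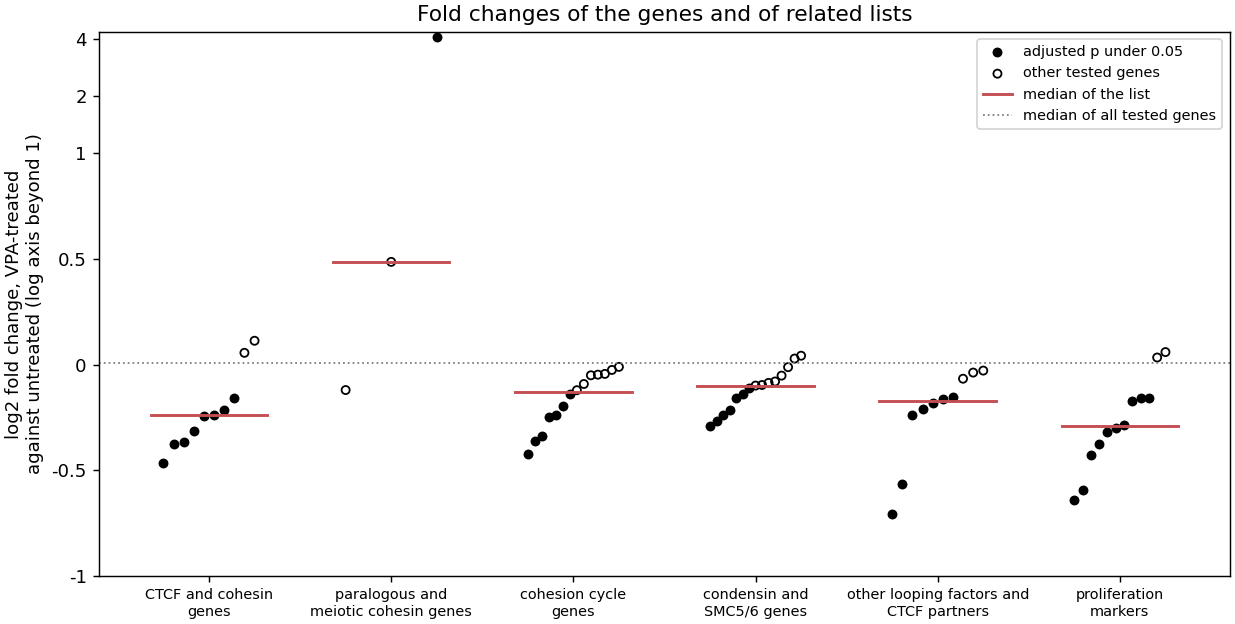
Log2 fold change with TMM, VPA-treated against untreated (y axis, a log scale beyond 1 in size), of the tested genes among the 10 and of 5 lists of related genes (x axis, genes ordered by value within a list). Filled points had an adjusted p under 0.05, open points did not, red lines are medians of the lists and the dotted line is the median of all tested genes. With this scaling every filled point but CTCFL, at 4.09, lies below 0, whereas with ribosomal protein genes many turn.

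The genes whose level followed that of CTCF most closely over the 6 libraries were UBE2E1, ATF6 and ERI3, with Pearson correlations of 0.9996, 0.9989 and 0.9984 across the 12196 genes whose mean was 50 counts or more. The correlation is a description over libraries that fall into 2 groups, and many genes that fell have a high value. The log2 fold changes of UBE2E1, ATF6 and ERI3 were -0.32, -0.17 and -0.15, against -0.37 for CTCF. Such a correlation does not depend on the size of a fall.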

How the data were processed

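RNA from 3 untreated and 3 VPA-treated HEK293T samples was sequenced. The authors filtered reads with SOAPnuke, mapped them with STAR (2.7.10b per the labels) to hg38 and deposited raw read counts per gene from htseq-count (HTSeq 2.0.1 per the labels). Which annotation and strand option were used is not given in the sources used here, and reads with several places were set aside, so that copies of a gene can lose reads. Summary lines were left out, with 6.80% to 7.69% of reads off genes, 1.97% to 2.10% ambiguous and 2.81% to 2.92% not unique.

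The test over all genes was that of edgeR 4.0.16 (R 4.3.3, TMM, filterByExpr with a minimum of 10, robust quasi-likelihood fit, prior count 0.125, condition as the one term, Benjamini-Hochberg adjustment over 15298 genes), after a test on simulated data. Normalized counts are counts divided by the TMM library size relative to the mean. Standard errors are the log2 fold change over the root of F. Gene positions and promoters came from RefSeq (GRCh38.p14), and exon lengths from GENCODE 44. Pair ratios were tested by exact permutation with scipy 1.17.1. The members and lists were chosen with earlier results of these data known. Named were all members, the 2 largest rises and falls called in each list at a mean of at least 50 counts, list genes on the X chromosome or at 0, neighbouring transcripts with at least 10 counts and the 3 genes most like CTCF; CTCFL, ESCO2, MKI67, TOP2A, STAG3, REC8, NSMCE4A, UTP23 and PCCB were added after their values were seen. RAD21L1, SMC1B, SMCHD1, PDS5B-DT and LOC112268030 were also named, although this rule does not cover them. Alternatives were DESeq2 1.42.0, 4 other scalings, other filters, a replicate block and leaving out each library.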

Additional observations from a re-analysis of the deposited data

How the results depend on the processing

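Scaling decided most changes of call. With library totals, 5 of the 10 genes fell and 2 rose, and SMC3 (-0.11), WAPL (-0.086) and PDS5A (-0.027) no longer passed, while PDS5B (0.24) and ESCO1 (0.19) did, and 2372 genes fell overall. With ribosomal protein genes, 1 fell and 3 rose, with 9250 genes higher and 854 lower overall; the log2 fold changes were -0.096 for CTCF, -0.045 for NIPBL and -0.10 for MAU2, and reversed for RAD21 (0.035), SMC3 (0.027), WAPL (0.054) and PDS5A (0.11, adjusted p = 0.034), with PDS5B at 0.38 and ESCO1 at 0.33. Reversed there too were ESCO2 (0.031), NCAPH2 (0.0046) and REC8 (0.15, and 0.010 with totals). With upper quartile, PDS5A (-0.093) did not pass and PDS5B (0.18) did, 1 gene higher. PDS5B (0.15) also passed, 1 gene higher, with a mean of at least 50 counts. NIPBL-DT was 0.058 with upper quartile, 0.12 with totals, 0.26 with ribosomal protein genes and 0.026 with that filter.

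Leaving out each library gave 0 to 1 members higher, PDS5B from 0.069 to 0.15, REC8 from -0.27 to 0.15 and NIPBL-DT from -0.053 to 0.036. Of 140 values of the 10 genes under alternatives, 121 kept direction and call, as did 186 of 207 of the other named genes. With the replicate number as a block, 5357 genes rose and 5100 fell, with 8 members lower and 1 higher, PDS5B (0.11, adjusted p = 0.0188). The numbers share no stated origin. Deviations of same-numbered libraries correlated at 0.319, 0.0875 and 0.240, and every library correlated best with its own number, a hint from the data only. Depth limits CTCFL, STAG3 and REC8.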

Other observations

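Divided by complex after their values were seen, and without SMCHD1, the genes of the other SMC rings gave the following counts. Of the 8 tested condensin genes, 7 fell and 0 rose, with log2 fold changes from -0.29 to -0.053 and a median of -0.18. Of the 6 tested genes of the SMC5/6 complex, a ring that acts in DNA repair and at replication forks, 0 fell and 0 rose, with log2 fold changes from -0.10 to 0.042 and a smallest adjusted p of 0.062, that of NSMCE4A (unadjusted p = 0.040). The ranges overlapped, and the difference between the complexes was not tested. Of all tested genes, 30.0% fell. Over the alternatives, the genes of the whole list that fell ran from 0 with ribosomal protein genes to 9. The 9 came with DESeq2 size factors, without the filter and with the replicate block. The split was not repeated under the alternatives.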
